A study of Mus musculus with 22 samples.

Results

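Ttr, Folr1, Kl, Clic6, Aqp1, Otx2, Prlr, Calml4, Enpp2 and Cldn2 are genes that the epithelium of the choroid plexus expresses strongly. These 10 genes were chosen by name, as markers of that tissue, from the 23037 genes of the count table. They address how much choroid plexus RNA the dissected brain regions carried and how it varied between libraries. RNA of the hippocampus, cortex and cerebellum was measured in 22 libraries from 8 mice by CelSeq2, a 3′ RNA-seq method that counts tags near the end of each transcript. The wild-type mice were m162, m164, m240 and m244, and the circTulp4-deficient (CD) mice were m118, m138, m190 and m242. In the CD line, CRISPR-Cas9 replaced the AG of the splice acceptor used to form circTulp4, a circular RNA of the Tulp4 gene, by TC. The line descends from a single mosaic founder male and was kept on a C57BL/6 background, and its loss of the circular RNA is partial and not restricted to a cell type. The age and sex of the mice are not given in the sources used here, and no mouse received a treatment. The hippocampus groups held 3 wild-type and 4 CD libraries, the cortex groups 4 and 4, and the cerebellum groups 4 and 3. The hippocampus of m164 and the cerebellum of m138 were not analysed here. The study's own legend states fewer libraries per group, and every library in the labels was used.

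The choroid plexus is a sheet of epithelial cells around fenestrated capillaries that lies inside the brain ventricles and secretes cerebrospinal fluid. A part of it lies in the lateral ventricle directly against the hippocampus, and another lies in the ventricle under the cerebellum. Its epithelium is known for very high levels of Ttr, transthyretin, which carries thyroid hormone and retinol-binding protein. Bulk RNA of neighboring tissue can contain Ttr when a piece of the plexus remains attached. In bulk samples, fewer cells of a type and less RNA per cell cannot be told apart.

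Totals over 1 transcript per gene were between 2760846 and 8858940 counts. Values are cpm, counts scaled by TMM to a common library size. They were not divided by transcript length and were not compared between genes. Markers of the dissected regions stood in their labeled regions. Pcp2, a Purkinje cell gene, was at least 2026 cpm in the cerebella and at most 26.3 cpm elsewhere. C1ql2, a dentate gyrus gene, was at least 643 cpm in the hippocampi and at most 50.5 cpm elsewhere. Lamp5, a gene of cortical neurons, was at least 316 cpm in the cortices and at most 50.0 cpm elsewhere. As a check of genotype, counts of the Tulp4 transcript that starts with an exon held by circTulp4 were reduced by those of the transcript that differs in that exon. This excess, per library total, was 2.71 to 3.69 cpm in hippocampi of wild-type mice and 0.42 to 0.57 cpm in 3 CD hippocampi. In the hippocampus library labelled CD m118 it was 3.97 cpm (16 counts), which goes against the label. It was 1.45 to 6.02 cpm in wild-type and 0.14 to 1.29 cpm in CD cortices, and 3.12 to 13.6 cpm in wild-type and 0.60 to 2.61 cpm in CD cerebella. For part of the counts of calls, genotype differences and ranges that the hippocampus labelled CD m118 enters, values without it are also given. The log2 ranges over the hippocampi, the slopes within the hippocampus alone and the sums of marker lists include it.

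Of the 10 genes, 7 reached 5 cpm in at least 2 of the 22 libraries, the filter of the study, as did 11137 genes in all. Kl, Aqp1 and Calml4 did not, and their values come from a fit without the filter. In GRCm38, the assembly also called mm10, Folr1 lies on chromosome 7 (101858331 to 101870788), Kl on 5 (150952607 to 150993817), Clic6 on 16 (92498147 to 92541241) and Aqp1 on 6 (55336299 to 55348555). Otx2 lies on chromosome 14 (48656781 to 48667644), Calml4 on 9 (62857472 to 62875921) and Cldn2 on X (139800808 to 139811386). Prlr (10177238 to 10349190) and Enpp2 (54838901 to 54952789) share chromosome 15.

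RefSeq promoters of GRCm38.p6 were used for 6 of the 10 genes, 11 promoters in all. Ttr was left out of this search, so the numbers of genes below do not cover it. The 250 bases before each start were searched on both strands for TAATCC, the letters that Otx2 and related factors bind, and for TATAAA, the TATA box. TAATCC was in a promoter of 1 gene, Otx2 itself, and in 6.25% of all 32851 promoters. TATAAA was in promoters of 2 genes, Otx2 and Cldn2, and in 12.4% of all promoters. The promoters with a match are shown because they belong to the transcription factor among these genes and to a gene of the epithelial tight junction. They are written 5′ to 3′ on the strand of the gene with the match in capitals.
Otx2, chr14:48665110-48665359 (minus strand), GGATTA, which reads TAATCC on the other strand, 211 bases before the start: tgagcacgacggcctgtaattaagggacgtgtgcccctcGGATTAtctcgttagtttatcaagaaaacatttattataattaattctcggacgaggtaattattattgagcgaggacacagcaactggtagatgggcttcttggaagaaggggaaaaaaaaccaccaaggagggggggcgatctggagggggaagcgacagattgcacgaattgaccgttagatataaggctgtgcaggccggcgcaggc
Otx2, chr14:48667645-48667894 (minus strand), TATAAA 192 bases before the start: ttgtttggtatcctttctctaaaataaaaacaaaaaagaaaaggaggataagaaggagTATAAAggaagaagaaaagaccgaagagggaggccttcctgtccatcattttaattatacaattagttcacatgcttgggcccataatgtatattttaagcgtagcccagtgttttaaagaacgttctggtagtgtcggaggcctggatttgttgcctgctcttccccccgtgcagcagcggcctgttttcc
Cldn2, chrX:139800558-139800807 (plus strand), TATAAA 35 bases before the start: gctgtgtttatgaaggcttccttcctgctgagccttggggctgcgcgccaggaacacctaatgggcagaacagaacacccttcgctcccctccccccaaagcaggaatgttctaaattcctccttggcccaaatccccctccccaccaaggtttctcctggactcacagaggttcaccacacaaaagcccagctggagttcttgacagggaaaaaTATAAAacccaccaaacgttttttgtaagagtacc
A match is a description of letters. No match in the other searched promoters says only that these letters are not in that window.

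Ttr (NM_013697.5, chromosome 18, 20664209 to 20674326) was higher in every hippocampus than in any cortex or cerebellum, but by very different amounts. It was 137.7 cpm in wild-type m162, 278 cpm in m240 and 8144 cpm in m244. It was 120 cpm in CD m118, 539 cpm in m242, 1183 cpm in m138 and 4113 cpm in m190. The highest hippocampus was thus 67.6 times the lowest, or 59.2 times without the library labelled CD m118. That library was the only low one with a CD label, and the other 3 CD hippocampi lay between those of wild-type m240 and m244. In the 8 cortices Ttr was between 37.0 and 112 cpm with a median of 95.3 cpm. In the 7 cerebella it was between 29.8 and 88.2 cpm with a median of 42.9 cpm. Ttr RNA made up 0.795% of all counts in the hippocampus of m244 and 0.0118% in that of m118. Within a mouse, the hippocampus had 1.30 to 74.7 times the Ttr of the cortex (higher in 7 of 7 mice). It had 2.31 to 202 times the Ttr of the cerebellum (higher in 6 of 6 mice).

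**Figure D1:**
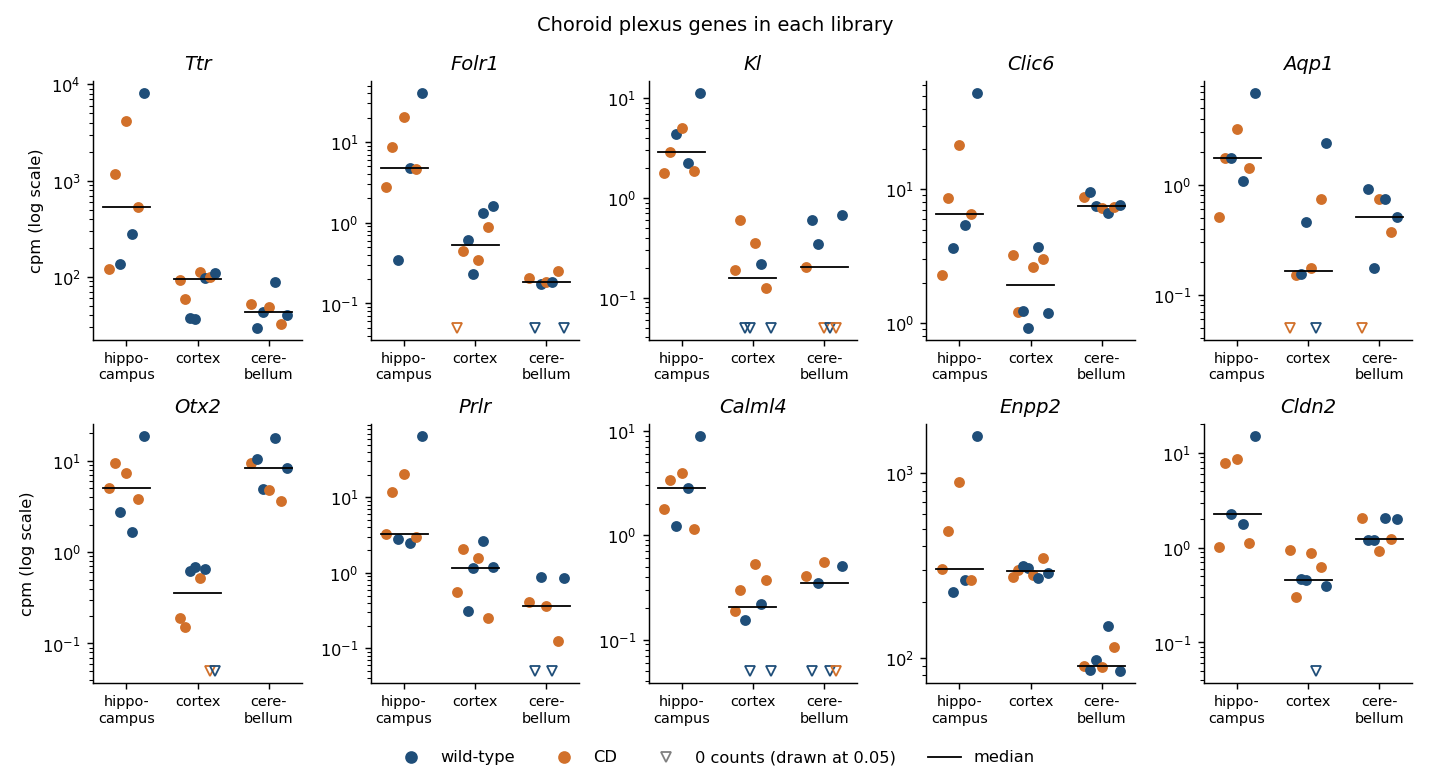
Levels in cpm (log scale) of the 10 choroid plexus genes in each of the 22 libraries, by region, with wild-type libraries in blue, CD libraries in orange, the median as a line and libraries with 0 counts as open triangles drawn at 0.05. The hippocampi spread over the widest range, up to 8144 cpm for Ttr, while Clic6 and Otx2 are also high in the cerebella.

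Enpp2, or autotaxin, is a secreted enzyme that makes lysophosphatidic acid, and oligodendrocytes express it as well as the choroid plexus. It was 228 cpm in the hippocampus of wild-type m162, 262 cpm in m240 and 1589 cpm in m244. It was 303 cpm in CD m118, 264 cpm in m242, 486 cpm in m138 and 893 cpm in m190. The cortices lay between 268 and 346 cpm, so that 3 of 7 hippocampi were above every cortex. The cerebella lay between 84.6 and 149 cpm, below every hippocampus. The 10 oligodendrocyte genes of a fixed list were also higher in the hippocampus, with summed levels of 3803 to 5999 cpm against 1371 to 2943 cpm in the cortices and 2149 to 3078 cpm in the cerebella. Their part in the Enpp2 difference was not tested. Their sum was 5042 cpm in the hippocampus of m244 and 5177 cpm in that of m190, the libraries with the most Enpp2, and highest in that of m118.

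Folr1 is the receptor that carries folate across the plexus. It was 0.348 cpm in the hippocampus of wild-type m162 (2 counts), 4.77 cpm in m240 and 40.7 cpm in m244. It was 2.78 cpm in CD m118, 4.68 cpm in m242, 8.60 cpm in m138 and 20.4 cpm in m190. In the cortices it was at most 1.59 cpm, and no cerebellum had more than 2 counts. Wild-type m162 was the only hippocampus that did not exceed every cortex. Prlr, the prolactin receptor, was 2.51 to 65.3 cpm in the hippocampi with a median of 3.29 cpm, at most 2.61 cpm in the cortices and at most 0.872 cpm in the cerebella. Its values in CD m138, CD m190 and wild-type m244 were 11.7, 20.4 and 65.3 cpm, and the other 4 hippocampi had at most 3.29 cpm. Kl, klotho, is a coreceptor for fibroblast growth factor 23 that is also shed from the epithelium. It was 1.77 to 11.3 cpm in the hippocampi, at most 0.599 cpm in the cortices and at most 0.678 cpm in the cerebella, with no overlap. Its levels next below that of m244 were in CD m190 (5.02 cpm) and wild-type m162 (4.35 cpm). The latter library had 25 counts of Kl and 2 of Folr1.

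Clic6, a chloride intracellular channel protein, was 3.65 cpm in the hippocampus of wild-type m162, 5.37 cpm in m240 and 52.8 cpm in m244. It was 2.28 cpm in CD m118, 6.53 cpm in m242, 8.60 cpm in m138 and 21.5 cpm in m190. The 7 cerebella lay close together, between 6.69 and 9.56 cpm, below 2 of the hippocampi and above every cortex (0.919 to 3.70 cpm). Cldn2, claudin-2, forms cation and water pores in the tight junctions. It was 1.01 to 15.1 cpm in the hippocampi, at most 0.941 cpm in the cortices and 0.921 to 2.05 cpm in the cerebella, and it was again highest in wild-type m244, CD m190 (8.70 cpm) and CD m138 (7.79 cpm). Aqp1, the water channel of the apical membrane, was 0.506 to 6.87 cpm in the hippocampi (2 to 40 counts). Its cortex values reached 2.39 cpm (6 counts in m244), so that 2 of 7 hippocampi exceeded every cortex.

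Otx2 is a homeobox transcription factor needed for the plexus to form. In the hippocampi it was 1.67 to 18.7 cpm with a median of 5.06 cpm, and in the cortices at most 0.689 cpm. In the cerebella it was 3.62 to 18.02 cpm with a median of 8.31 cpm, highest in wild-type m240 and lowest in CD m242. Calml4, a calmodulin-like protein, was 1.14 to 8.93 cpm in the hippocampi and had at most 3 counts in any cortex or cerebellum.

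The order of the hippocampi was shared. The library of wild-type m244 was the highest for 10 of 10 genes. That of CD m190 was the next for 9 of 10, the exception being Otx2, where CD m138 (9.53 cpm) was above CD m190 (7.38 cpm). The gap between the highest library and the next ran from 1.74 times for Cldn2 to 3.21 times for Prlr. The lowest hippocampus differed between genes. It was CD m118 for Ttr, Kl, Clic6, Aqp1 and Cldn2, wild-type m162 for Folr1 and Enpp2, wild-type m240 for Otx2 and Prlr, and CD m242 for Calml4.

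The region differences were tested with edgeR over the 22 libraries. A gene was called at an FDR below 0.01 with its level more than doubled or halved. Between hippocampus and cortex, 8.41% of all genes tested were called, 4.03% as higher in the hippocampus. Ttr was higher in the hippocampus by 4.70 ± 0.70 on the log2 scale (SE; FDR = 6.72e-06), and Folr1 by 4.20 ± 0.67 (FDR = 1.75e-05). Otx2 was higher by 4.32 ± 0.60 (FDR = 2.40e-06), Prlr by 3.66 ± 0.68 (FDR = 0.000113), Cldn2 by 3.49 ± 0.59 (FDR = 3.81e-05) and Clic6 by 2.74 ± 0.51 (FDR = 0.000115). So 6 of the 7 genes past the filter were called. Folr1, Prlr and Cldn2 were below 5 cpm in every cortex and cerebellum and passed the filter only through hippocampi. The filter thus favored their call as higher in the hippocampus. Enpp2, with a log2 difference of 0.97 ± 0.30 (FDR = 0.0135), was not called. It passed without the hippocampus labelled CD m118 (1.06, FDR = 0.00885), and also without that of CD m242 (1.07), wild-type m162 (1.18) or wild-type m240 (1.17). Without the filter 6.41% of genes were called, 3.32% as higher in the hippocampus. In that fit Kl was higher by 4.69 ± 0.51, Calml4 by 3.92 ± 0.51 and Aqp1 by 2.47 ± 0.49, with FDR of 8.05e-16, 1.13e-11 and 1.35e-05. The sizes rested in part on wild-type m244. Leaving out its hippocampus lowered the log2 difference of Ttr to 2.81, Folr1 to 2.97, Otx2 to 3.43, Prlr to 2.09, Cldn2 to 2.67, Clic6 to 1.67 and Enpp2 to 0.22, although the 6 genes stayed called. With the mouse as a block, Ttr was higher by 3.61 and the same 6 genes were called. The libraries of hippocampus and cortex did not overlap for Ttr, Otx2 and Cldn2, and for 14.0% of the genes past the filter (6.44% with the hippocampus higher). Nor did they overlap for Kl and Calml4, which are not past the filter, and the share among genes below it was not computed.

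The cerebellum gave another order. Between hippocampus and cerebellum 22.8% of all genes were called, 13.0% as higher in the hippocampus. Folr1 was higher in the hippocampus by 6.22 ± 0.88 on the log2 scale (FDR = 1.14e-06), Ttr by 5.45 ± 0.79 (FDR = 1.70e-06) and Prlr by 5.38 ± 0.86 (FDR = 6.43e-06). Enpp2 was higher by 2.53 ± 0.34 (FDR = 4.26e-07) and Cldn2 by 1.87 ± 0.50 (FDR = 0.00236). Cldn2 was no longer called with the mouse as a block (1.36, FDR = 0.0232) or without wild-type m244 (1.06, FDR = 0.0501). Clic6 (0.87 ± 0.44, FDR = 0.0942) and Otx2 (-0.14 ± 0.40, FDR = 0.774) were not called. Without wild-type m244 the log2 difference was 3.57 for Ttr, 5.0 for Folr1, 3.81 for Prlr and 1.78 for Enpp2, each still called, and -0.21 for Clic6 and -1.04 for Otx2. Without the hippocampus labelled CD m118 the same number of genes, 5, was called. Of the genes called, Folr1, Prlr and Cldn2 had passed the filter only through hippocampi, which favored this direction. Without the filter, where 16.4% of genes were called and 9.97% as higher in the hippocampus, Kl (4.50 ± 0.51), Calml4 (3.65 ± 0.50) and Aqp1 (2.27 ± 0.49) were called. The libraries did not overlap for Ttr, Folr1, Prlr and Enpp2, and for 35.9% of the genes past the filter (19.3% with the hippocampus higher). Nor did they overlap for Kl and Calml4, which that share does not cover. For genes with few counts the fitted values depend on the prior count, so ratios of pooled counts are given as well, scaled to cpm, with exact 95% intervals that cover counting error only. Folr1 had 535 counts in the hippocampi and 6 in the cerebella, a ratio of 80.7 (36.8 to 221), and 51.4 (23.3 to 141) without wild-type m244, which held 237 of the counts. Kl had 189 and 11 counts, a ratio of 15.6 (8.50 to 31.7). Calml4 had 154 and 10 counts, a ratio of 13.9 (7.38 to 29.6).

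Otx2 and Clic6 were higher in the cerebellum than in the cortex. Between cortex and cerebellum 22.6% of all genes were called, 12.9% as higher in the cortex and 9.71% as lower. The log2 difference (cortex minus cerebellum) was -4.46 ± 0.60 for Otx2 (FDR = 5.10e-07) and -1.88 ± 0.53 for Clic6 (FDR = 0.00379). Enpp2 was higher in the cortex by 1.56 ± 0.32 (FDR = 0.000159). The libraries of these 3 genes did not overlap, nor did those of 33.0% of the genes past the filter (17.5% with the cortex higher). The call of Clic6 was lost without the cortex of wild-type m162 (-1.77, FDR = 0.0105). Ttr (0.75 ± 0.67, FDR = 0.336), Folr1 (2.03 ± 1.32, FDR = 0.189), Prlr (1.72 ± 1.16, FDR = 0.205) and Cldn2 (-1.62 ± 0.70, FDR = 0.0496) were not called. The spread of each gene was estimated over all 22 libraries, so these SE and FDR also carry the spread among hippocampi. Without the hippocampus of wild-type m244 the log2 differences stayed nearly the same but the FDR fell. It was then 0.164 for Ttr, 0.0662 for Folr1, 0.0523 for Prlr and 0.0164 for Cldn2, still not called. For Clic6 it was 6.00e-05 and for Enpp2 1.61e-07. In the fit without the filter 16.0% of genes were called, among them Prlr (FDR = 0.00835) and Cldn2 (FDR = 0.00186), but not Kl, Aqp1 or Calml4. Ttr was higher in the cortex in 6 of 7 mice.

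**Figure D2:**
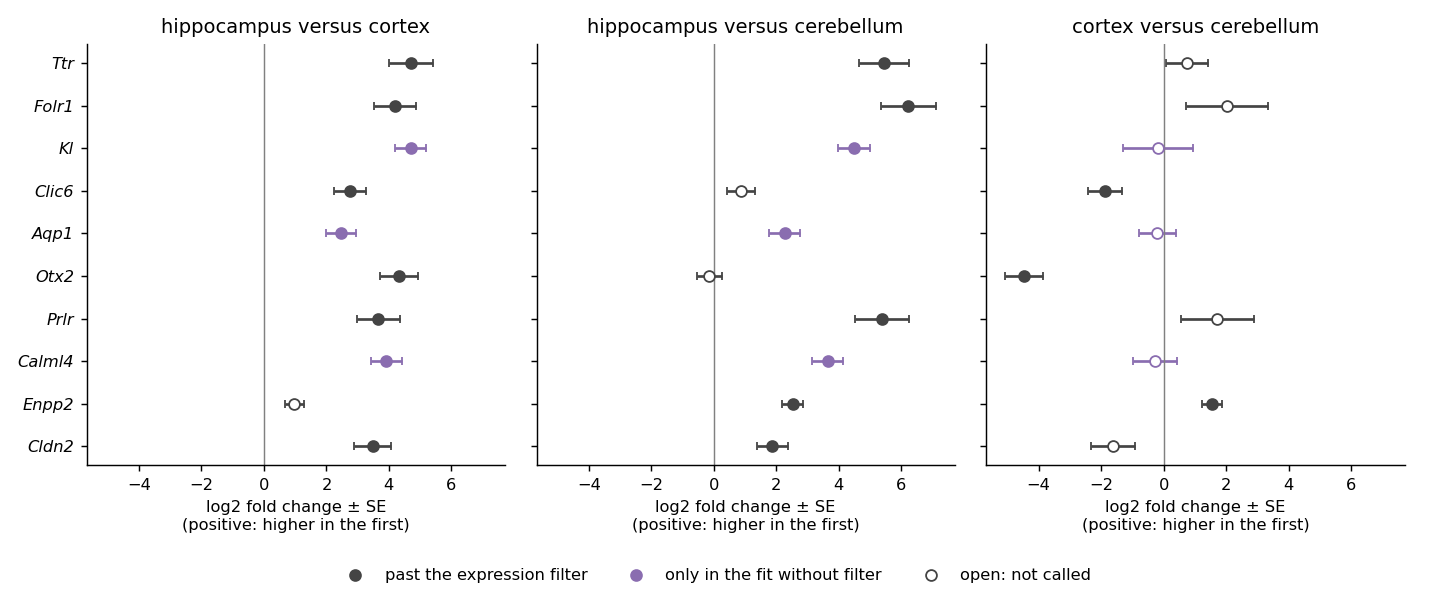
Log2 fold change with its SE for each of the 10 genes in the 3 region comparisons, with genes past the filter in grey, those only in the fit without a filter in purple, and open points for genes not called. Ttr lies at 4.70 and 5.45 for hippocampus against cortex and cerebellum, while Otx2 lies at 4.32, -0.14 and -4.46 in the 3 panels.

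The spread among hippocampi was set against that of all genes. The log2 range of Ttr over the 7 hippocampi was 6.08, against a median of 0.60 for 9964 genes, and only Gh, growth hormone, had a wider range (6.39). Folr1 (5.98) ranked next after Ttr. Prlr (4.54) was at rank 13, Clic6 (4.36) at 16, Cldn2 (3.55) at 24, Otx2 (3.26) at 29 and Enpp2 (2.81) at 47. The genes ranked were those with 5 cpm in at least 2 hippocampi, which left out Kl, Aqp1 and Calml4. Folr1, Prlr and Cldn2, with hippocampal medians of 4.77, 3.29 and 2.26 cpm, passed only through their highest hippocampi. A wide range was thus favored for these genes by the filter itself. In the cortices the log2 range was 1.58 for Ttr, with 5.63% of genes at least as wide, and 0.36 for Enpp2, with 91.2% as wide. In the cerebella it was 2.22 for Otx2 (0.690% of genes as wide) and 1.57 for Ttr (3.03%). It was 0.83 for Enpp2 (26.4%) and 0.48 for Clic6 (63.8%). Without the hippocampus labelled CD m118, the ratio of the highest to the lowest hippocampus went from 23.2 to 14.5 for Clic6, from 13.6 to 6.40 for Aqp1, from 14.9 to 13.3 for Cldn2 and from 6.41 to 6.15 for Kl. Clic6, among the widest genes in the hippocampus, thus varied less than most genes in the cerebellum.

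Variation within groups was then related to Ttr. For each gene a slope on the log2 level of Ttr, centered within the 6 groups of region and genotype, was fitted over the 22 libraries. A slope of 1 means that the gene doubles when Ttr doubles. Among 11136 genes, 16 (0.144%) were called at an FDR below 0.01, each with a positive slope. They included 5 of the 6 other genes past the filter. Of these, Folr1, Prlr and Cldn2 reached 5 cpm only in the hippocampi of wild-type m244, CD m190 and CD m138, those with the most Ttr. The filter thus favored a positive slope for these genes. The slope was 0.75 ± 0.10 for Prlr (FDR = 0.000107), 0.73 ± 0.08 for Folr1 (FDR = 1.31e-05), 0.62 ± 0.06 for Clic6 (FDR = 5.11e-07), 0.56 ± 0.09 for Cldn2 (FDR = 0.00145) and 0.39 ± 0.05 for Enpp2 (FDR = 2.13e-05). That of Otx2 was 0.43 ± 0.09 (FDR = 0.0447) and was not called. In the fit without the filter, where 0.253% of genes were called, Otx2 was called with the same slope (FDR = 7.11e-06). The slopes of Aqp1 (0.44), Calml4 (0.37) and Kl (0.29) were not called there, with FDR of 0.0975, 0.126 and 0.259.

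The calls on Ttr rested on 1 library. Without the hippocampus of wild-type m244, none of these genes and 1 gene in all was called. The slopes were then 0.68 for Folr1 (FDR = 0.0517), 0.59 for Cldn2, 0.55 for Clic6 (FDR = 0.0173), 0.54 for Prlr and 0.27 for Enpp2. Cldn2 was also lost without the hippocampus of wild-type m240 (0.53, FDR = 0.0137). Without the hippocampus labelled CD m118, 5 of these genes and 17 genes in all were called. With the mouse as a block, Clic6 (0.68, FDR = 0.000507) and Enpp2 (0.43, FDR = 0.00708) and 7 genes in all were called, whereas Folr1 (0.67, FDR = 0.440), Prlr (0.52, FDR = 0.796) and Cldn2 (0.58, FDR = 0.177) were not. Within the hippocampus alone 13 genes were called, without Cldn2 (0.57, FDR = 0.0526), and with DESeq2 the call of Prlr was lost (0.69, FDR = 0.0149). In the cortex alone and the cerebellum alone edgeR called 0 genes, and 1151 and 424 genes had an unadjusted p below 0.05.

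**Figure D3:**
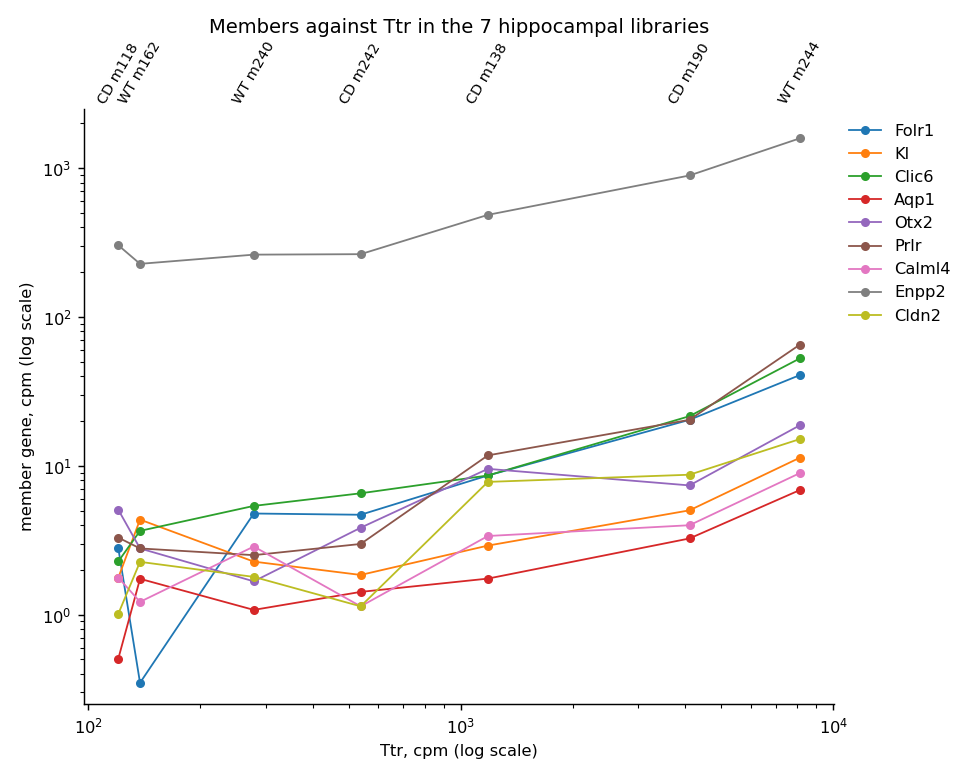
Levels in cpm of the 9 other genes (log scale) against Ttr (log scale) in the 7 hippocampal libraries, labeled above by genotype and mouse. Each line ends at its highest point in wild-type m244, up to 1589 cpm for Enpp2, whereas at low Ttr the lines cross and Folr1 drops to 0.348 cpm in wild-type m162.

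Counts of each gene per 1000 Ttr counts give a ratio that was compared between libraries and not between genes. Folr1 gave 5.0 (95% exact interval of 4.38 to 5.68, counting error only) in the hippocampus of wild-type m244 and 4.95 (4.16 to 5.85) in that of CD m190, while Ttr itself differed 1.98 times. It gave 17.2 (12.2 to 23.4) in wild-type m240 and 2.53 (0.305 to 9.15) in wild-type m162. Clic6 gave 6.48 (5.77 to 7.25) in wild-type m244, 5.24 (4.42 to 6.16) in CD m190 and 26.5 (16.3 to 40.8) in wild-type m162. Folr1 also gave 23.1 (11.5 to 41.7) in the library labelled CD m118, 8.70 (5.98 to 12.2) in CD m242 and 7.27 (5.71 to 9.14) in CD m138. Among the libraries with less Ttr than CD m190, the ratio of Folr1 was thus above that of wild-type m244 in each of these and in wild-type m240. In wild-type m162, with 2 counts of Folr1, the interval contained the ratio of wild-type m244. Kl (1.39 and 1.22), Calml4 (1.10 and 0.969), Aqp1 (0.844 and 0.789), Otx2 (2.30 and 1.79) and Cldn2 (1.86 and 2.12) also had overlapping intervals in wild-type m244 and CD m190. Prlr did not, at 8.02 (7.23 to 8.87) in wild-type m244 and 4.95 (4.16 to 5.85) in CD m190. Enpp2 gave 195 (191 to 200) and 217 (211 to 223), again without overlap. CD m138 had less Ttr than both, and gave 8.06 (6.41 to 10) for Otx2 and 6.59 (5.10 to 8.37) for Cldn2, above the intervals of wild-type m244 and CD m190. Separate libraries differ by more than counting error, so these intervals are too narrow for a comparison of mice.

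**Figure D4:**
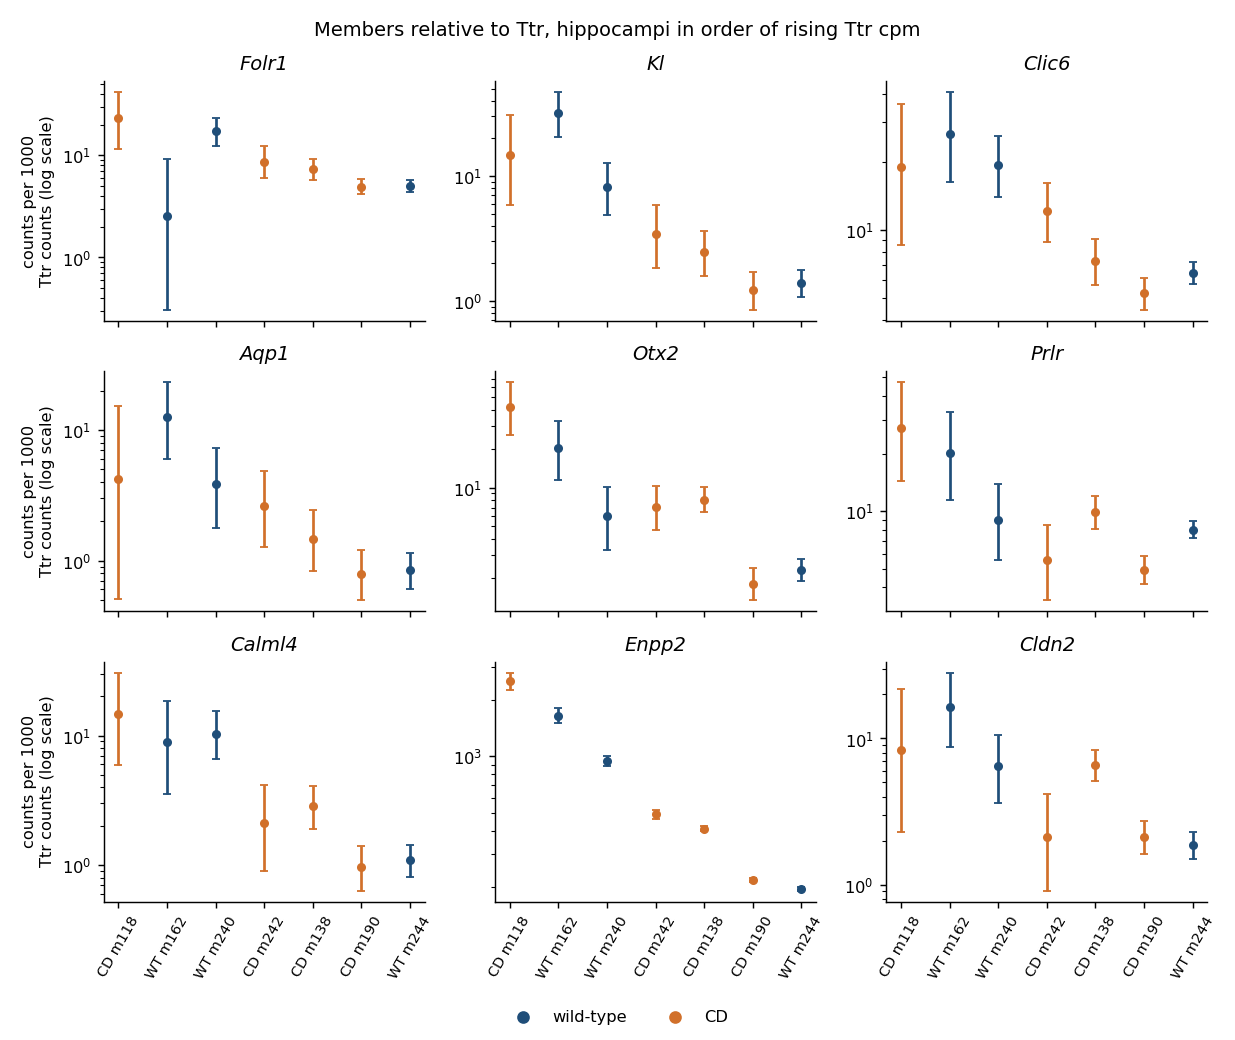
Counts of each gene per 1000 Ttr counts (log scale) in the 7 hippocampi, in order of rising Ttr, with 95% exact intervals for counting error and colors for genotype. Most ratios fall toward the right, for Enpp2 from 2519 in CD m118 to 195 in wild-type m244, and for Folr1 those of CD m190 and wild-type m244 lie close together at 4.95 and 5.0.

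Of 24 other choroid plexus genes in a fixed list, 18 passed the filter. Between hippocampus and cortex 7 were higher in the hippocampus and 11 were not called (median log2 difference of 0.61, against 0.01 for all genes). Between hippocampus and cerebellum 7 were higher and 2 lower. Of all 11137 genes tested, 4.03% were called as higher in the hippocampus than in the cortex. Against the cerebellum 13.0% were called as higher in the hippocampus and 1087 genes as lower. The genes of this list with the highest mean level are also expressed by meninges, blood vessels or neurons. Igf2, an insulin-like growth factor, was 38.7 to 156 cpm in the hippocampi and 47.8 to 124 cpm in the cortices. Slc13a4, a sulfate transporter, was 5.82 to 59.1 cpm and 24.9 to 52.7 cpm. Plvap, a protein of fenestrated endothelium, was 8.85 to 14.9 cpm and 11.7 to 20.1 cpm. The libraries of hippocampus and cortex thus overlapped for these 3 genes. Slc29a4, a monoamine transporter, was 44.5 to 102 cpm in the hippocampi, 7.58 to 10.7 cpm in the cortices and 51.3 to 78.5 cpm in the cerebella. With Ttr, 8 of the 18 rose and 10 were not called, against 0.144% of all genes called. Some of the 18 passed the filter only through hippocampi. Among them were Kcne2 (at most 1.31 cpm in the cortices and 0.557 cpm in the cerebella) and F5 (at most 0.654 and 0.743 cpm). For such genes the filter favored both a call as higher in the hippocampus and a positive slope.

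The genes whose centered log2 levels were most like Ttr over the 22 libraries, by Pearson's r, are given as a description. Outside the 10 genes they were Kcne2 (0.93), Sulf1 (0.91), Slc4a5 (0.91), Mfrp (0.91), C1qtnf5 (0.90), F5 (0.89), Slc13a4 (0.86), Kcnj13 (0.84), Ackr4 (0.83) and Hemk1 (0.82). Among the 10 genes r was 0.91 for Clic6, 0.87 for Folr1, 0.87 for Enpp2, 0.78 for Cldn2, 0.75 for Prlr and 0.58 for Otx2. The hippocampi of wild-type m244 and CD m118 lay farthest from the median of Ttr. Without them r was 0.87 for Kcne2, 0.82 for Clic6, 0.80 for Folr1, 0.81 for Enpp2, 0.63 for Cldn2, 0.60 for Prlr and 0.38 for Otx2. Kcne2, a potassium channel subunit, and Slc4a5, a sodium bicarbonate cotransporter, had slopes of 0.96 ± 0.09 and 0.89 ± 0.07. Mfrp and C1qtnf5 come from overlapping transcripts, and reads in the overlap cannot be assigned to either.

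**Figure D5:**
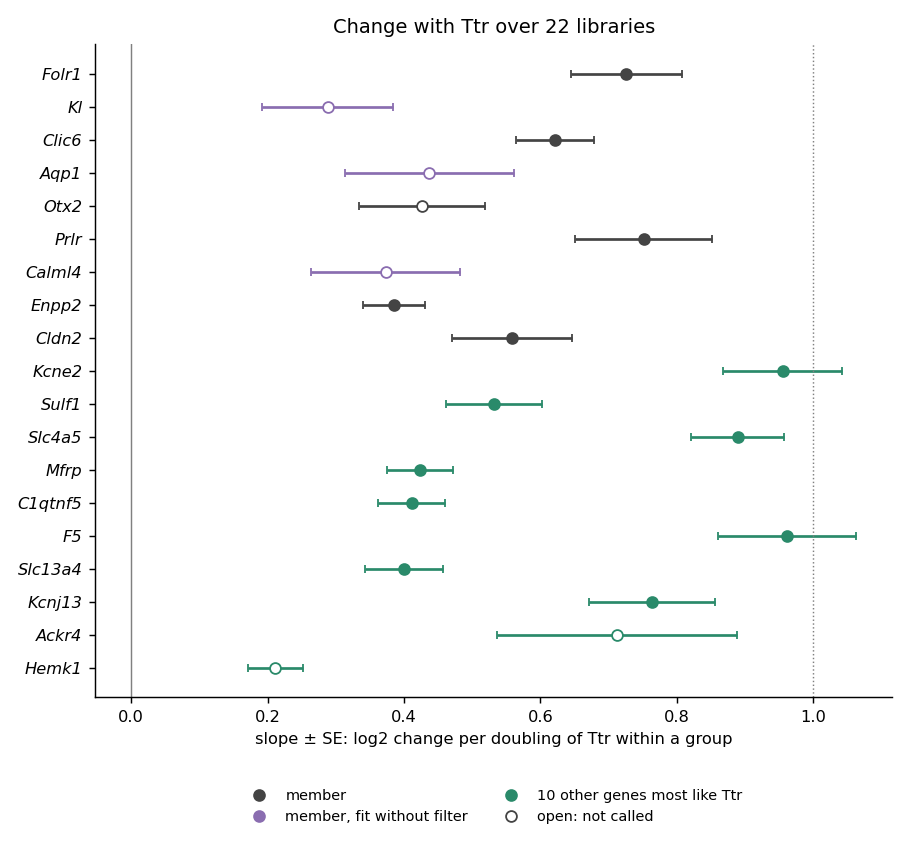
Slope with its SE of the log2 level of each gene on the log2 level of Ttr centered within groups, over the 22 libraries, for the 9 other members (grey, or purple for the fit without a filter) and the 10 other genes most like Ttr (green), with open points for genes not called and a dotted line at 1. The members lie between 0.29 (Kl) and 0.75 (Prlr), and Kcne2 (0.96) and F5 (0.96) lie nearest to 1.

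Other cell types were followed through fixed marker lists, whose levels were summed over the whole list. Of 12 ependymal genes, which mark the ciliated cells that line the ventricles, 5 passed the filter. Each of the 5 was higher in the hippocampus than in both other regions. When each region was filtered separately, hippocampi kept 5 ependymal genes, cortices kept 1 and cerebella kept 1. Most of the 5 thus entered through hippocampi, which favored this direction. The ependymal sum was 41.9 to 104 cpm in the hippocampi, 14.4 to 25.1 cpm in the cortices and 12.6 to 20.4 cpm in the cerebella. It was highest in wild-type m244 (104 cpm) and next in CD m138 (88.1 cpm), and the slope on Ttr was called for 0 of the 5 genes. Of 11 meningeal genes, 1 was higher and 3 were lower in the hippocampus than in the cortex, with sums of 54.1 to 107 cpm and 66.0 to 161.8 cpm. Of 8 endothelial and 5 erythrocyte genes 0 were called between any regions by edgeR. The endothelial sum was 308 to 381 cpm in the hippocampi and 373 to 404 cpm in the cortices. Of 3 thalamic genes, 1 was higher in the hippocampus than in the cortex, with sums of 28.3 to 41.9 cpm and 18.9 to 35.0 cpm. The slope on Ttr was called for none of these genes, nor for the 10 oligodendrocyte genes and the 15 marker genes of hippocampus, cortex and cerebellum. It was positive for 11 of 11 meningeal genes (median slope of 0.18) and 5 of 5 ependymal genes (median of 0.10), against a median of -0.00099 for all genes. It was positive for 3 of 10 oligodendrocyte genes and 5 of 8 endothelial genes. Among the other lists it was positive for 5 of 5 cerebellum markers (median of 0.072), 3 of 5 hippocampus markers and 1 of 5 cortex markers. It was positive for 1 of 3 thalamic genes and 0 of 5 erythrocyte genes. The part of other cell types in the differences above was not tested.

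Between CD and wild-type mice 0 of the 10 genes were called in any region. Among all genes tested edgeR called 0% in the hippocampus, the cortex and the cerebellum, where 420, 328 and 462 genes had an unadjusted p below 0.05 and DESeq2 called 2, 1 and 0 genes. In the hippocampus Ttr differed by -0.93 ± 1.22 on the log2 scale (CD minus wild-type, FDR = 0.997), less than its SE. The 6 other genes past the filter lay between -1.21 (Prlr) and -0.19 (Otx2). The sign was set by wild-type m244. Without it the log2 difference was 2.84 for Ttr, 1.91 for Prlr, 1.74 for Folr1, 1.60 for Otx2, 1.30 for Cldn2, 1.13 for Clic6 and 0.99 for Enpp2, again not called (FDR = 0.980 for each). Without the hippocampus labelled CD m118 it was -0.55 for Ttr, -0.98 for Prlr, -0.73 for Clic6, -0.42 for Folr1, -0.33 for Enpp2, -0.10 for Otx2 and -0.064 for Cldn2, none called (FDR = 0.998 for each). Without the filter 0.0293%, 0.0149% and 0.050% of genes were called in the hippocampus, cortex and cerebellum, and none of the 10. In that fit Kl differed in the hippocampus by -0.97 ± 0.37 (FDR = 0.878). In the cortex the log2 difference was 0.39 ± 0.31 for Ttr and 0.03 ± 0.11 for Enpp2. In the cerebellum it was -0.18 ± 0.30 for Ttr, -0.85 ± 0.41 for Otx2 (FDR = 0.981), -0.02 ± 0.21 for Clic6 and -0.08 ± 0.18 for Enpp2. The genotype by region interaction was called for 0 of 11137 genes by edgeR (0%, at an FDR below 0.05), with 436 genes at an unadjusted p below 0.05 and 3 called by DESeq2.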

How the data were processed

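CelSeq2 libraries of dissected hippocampus, cortex and cerebellum were grouped by the region and genotype in their labels. The authors aligned reads to mm10 with STAR and counted them per RefSeq transcript with the End Sequence Analysis Toolkit. The deposited values are raw counts. Tool versions, the RefSeq release and the treatment of molecular identifiers are not given in the sources used here, so intervals cover counting error only.

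Of 85964 transcripts, 39994 repeat the counts of another, and 80.6% (81.4% of counts) were matched to genes of GRCm38.p6 by RefSeq identifier. For each gene the transcript with the most counts was used. Genes past the 5 cpm filter, applied to the libraries of each fit, were TMM-scaled and tested by edgeR 4.0.16 (quasi-likelihood) in R 4.3.3 with Benjamini-Hochberg FDR. Regions and slopes on Ttr were fitted with 6 group means over 22 libraries, and genotypes within each region. In the fits over 22 libraries each gene had a single estimate of its spread, shared by all regions. Alternatives were DESeq2 1.42.0, other scalings, no filter, summed distinct transcripts, each library left out, and the mouse as a block. Libraries with the same mouse number come from the same animal, as the labels give, and their deviations from group means correlated by -0.080 to 0.182. The tests were checked on simulated counts, drawn with the same spread in every region and no effect of the mouse. That check thus covers neither unequal spread between regions nor repeated mice. P-values of the genotype tests within a region measure the spread between these mice. Those of the region, interaction and slope fits measure the spread between libraries, some of which share a mouse, unless the mouse was a block.

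The 10 genes and the marker lists were chosen with earlier results of these data known. The rule for naming took the 10 genes, the 4 genes of each list with the highest mean level, the 10 genes most like Ttr, and Tulp4.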

Additional observations from a re-analysis of the deposited data

Results flagged for a closer look

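Levels of the 10 genes were checked for a library far from the other 3 in each group of 4 libraries in which the gene reached 10 counts, by the gap to the nearest library over the range of the group, with the 95% critical value of Dixon. Of 23 such groups, 1 passed, close to the number of 1.15 that chance gives at 1 in 20. This was Clic6 in the wild-type cortices, where m240 had 3.70 cpm and the other 3 libraries had 0.919 to 1.24 cpm. The gap was 0.886 of the range. The groups of 3, wild-type hippocampus among them, were not checked in this way.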

How the results depend on the processing

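Of the values of single genes under the alternatives other than leaving out a library, 229 kept their direction and side of the threshold, 12 lost the call, 4 gained it and 3 changed sign. Without the filter, 8 of the genes were called between hippocampus and cerebellum and 5 between cortex and cerebellum, and 58 genes followed Ttr. DESeq2 called 26 genes that follow Ttr and the mouse as replicate block 7, 2 of them among the 10. In the cortex alone, in the cerebellum alone and without the 2 libraries farthest in Ttr these numbers were 0 in all and 0 among the 10, and the slope was -0.074 for Enpp2 in the cortex alone and -0.20 for Clic6 in the cerebellum alone. With centered log2 Ttr as a covariate, an alternative chosen after the data were examined, the CD difference of Otx2 in the hippocampus was 0.26. The ranges without the hippocampus labelled CD m118 and the pooled ratio without wild-type m244 were also chosen after the data were examined. The block changed no call but that of Cldn2 and those on Ttr named above. No paired analysis was possible because the genotypes share no mouse in the genotype comparisons. Where not named, the cause was not tested.

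With each library left out, 6 to 7 of the genes were called between hippocampus and cortex, 4 to 5 between hippocampus and cerebellum, 2 to 3 between cortex and cerebellum, 0 to 0 between genotypes, and 0 to 5 followed Ttr, with 1 to 21 genes in all. Log2 differences that changed sign ran from -1.04 to 0.12 for Otx2 and from -0.21 to 1.11 for Clic6 between hippocampus and cerebellum. Between genotypes they ran in the hippocampus from -2.21 to 2.84 for Ttr, -1.40 to 1.74 for Folr1, -1.71 to 1.13 for Clic6, -0.71 to 1.60 for Otx2, -1.85 to 1.91 for Prlr, -0.98 to 0.99 for Enpp2 and -0.81 to 1.30 for Cldn2, in the cortex from -0.054 to 0.070 for Enpp2, and in the cerebellum from -0.37 to 0.23 for Ttr, -0.11 to 0.092 for Clic6 and -0.22 to 0.14 for Enpp2.

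Scaling by library totals moved the median log2 difference of all genes from -0.02 to -0.20 between hippocampus and cerebellum and from -0.02 to -0.25 between cortex and cerebellum. The calls then split into 1239 higher and 1380 lower in the hippocampus (1452 and 1087 with TMM) and 1150 higher and 1543 lower in the cortex (1435 and 1081 with TMM). Enpp2 was then called between hippocampus and cortex (1.03, FDR = 0.00929). Without the filter 1471, 3769 and 3670 genes were called in the region comparisons in the order above, against 937, 2539 and 2516, 23 in the interaction, and 6, 3 and 10 between genotypes in the hippocampus, cortex and cerebellum. Depth limits Kl, Aqp1 and Calml4, and Folr1 and Prlr outside the hippocampus, which had few counts in each library.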

Other observations

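Gh, growth hormone, and Prl, prolactin, the hormone bound by Prlr, were singled out only after their values were known, since their log2 ranges among the hippocampi ranked with those of the choroid plexus genes. They are made in the pituitary gland. Gh was 92.8 cpm in the hippocampus of CD m190, 22.5 in CD m118, 8.66 in CD m242 and 0.814 in CD m138, and 6.21 in wild-type m240, 3.26 in wild-type m244 and 2.09 in wild-type m162. Prl was 27.7 cpm in CD m190, 11.6 in CD m118, 5.39 in CD m242 and 0.814 in CD m138, and 3.46 in wild-type m240, 1.22 in wild-type m162 and 0.172 (1 count) in wild-type m244. The library of wild-type m244, the highest for Ttr, was thus the lowest for Prl, while CD m190 was high for Ttr and both hormones. In m190 the hormone RNAs were also present in the cortex (Gh 58.3 and Prl 21.2 cpm) and the cerebellum (47.9 and 13.5 cpm), where Ttr was 112 and 48.6 cpm. In CD m118 they were 54.5 and 31.1 cpm in the cerebellum. Both genes were among the 9964 tested between genotypes in the hippocampus, of which edgeR called 0. No separate test was run on them.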
